A study of Mus musculus with 8 samples.

Results

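The pre-B cell receptor is the checkpoint receptor of early B lymphocyte development. A newly rearranged immunoglobulin mu heavy chain pairs with a surrogate light chain, built from the invariant proteins lambda5 (gene Igll1) and VpreB (genes Vpreb1 and Vpreb2), and the complex signals through the CD79A and CD79B chains. Their phosphorylated tails recruit the kinase SYK, the adaptor BLNK and the kinase BTK, and this signal drives the pro-B to pre-B transition in bone marrow. Transcripts of several of these genes appear in lymphoid-primed progenitors before any heavy chain has been assembled.

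The genes described here are 8 named components and adaptors of this receptor (Igll1, Vpreb1, Vpreb2, Vpreb3, Cd79a, Cd79b, Blnk and Btk), taken by symbol from a table of read counts for 23284 genes. All 8 were found in it. The table covers haematopoietic stem and progenitor cells sorted from bone marrow of Hdc-GFP mice on the C57BL/6 background, which carry a green fluorescent reporter for histidine decarboxylase, the enzyme that makes histamine. LSK cells, which lack lineage markers and carry c-Kit and Sca-1, were separated into Hdc-GFPhi and Hdc-GFPlo, with 4 libraries of each and 2000 cells behind every library. All groups carried the reporter, and the labels give neither age nor whether libraries came from separate animals, so p-values measure the spread between these libraries, which may be technical. Hdc-GFPhi replicate 4 is labelled GFP+ in its cell type field where the others of that group are labelled GFPhi.

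Libraries held 21041170 to 22470121 counts in Hdc-GFPhi and 16726179 to 23051277 counts in Hdc-GFPlo. The transcripts behind the sort, Kit and Ly6a (Sca-1), averaged 1460 and 125 CPM (counts scaled to library size by edgeR) in Hdc-GFPhi, against 1195 and 119 CPM in Hdc-GFPlo, and neither was called. Of lineage genes, Cd8a and Hba-a1 had no count in any library, Cd3e had 0 counts over all Hdc-GFPhi and 7 over all Hdc-GFPlo libraries, while Itgam averaged 86.5 CPM in Hdc-GFPhi, against 114 CPM in Hdc-GFPlo. On the first 2 principal components of log2 CPM, which held 28.2% and 24.5% of the variance, Hdc-GFPhi replicate 4 lay apart on the first (53.1 against -31.3 to 16.3 for the other libraries) and Hdc-GFPlo replicate 3 had the lowest score on the second (-40.5 against -16.4 for the next). Results are therefore also given without both of these libraries.

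Transcripts of the surrogate light chain and of the early signalling chain and adaptor were far lower in Hdc-GFPhi than in Hdc-GFPlo LSK cells, while those of the kinase Btk were almost at the same level. A gene is called here when its Benjamini-Hochberg adjusted p over all 13300 genes tested, from edgeR's quasi-likelihood test, is under 0.05. Of the 8 genes, 5 were called lower (Igll1, Vpreb1, Vpreb2, Cd79a and Blnk) and none higher, against a background of 0.707% of all tested genes called lower, 0.241% called higher and 0.947% called either way. The libraries of the groups did not overlap for 7 of the 8 genes, all lower in Hdc-GFPhi, where 3.54% of all tested genes were separated in that direction and 6.92% in either. The median log2 fold change of Hdc-GFPhi over Hdc-GFPlo was -2.38 over the 8 genes and -0.00045 over all tested genes. The 8 genes were chosen with earlier results of these data known, and Vpreb1 and Vpreb2 are near copies of each other. The comparison with all tested genes is therefore a description and not an independent test. The filter on low counts asked for 4 libraries over a minimum level, which Vpreb2 met in 0 Hdc-GFPhi and 4 Hdc-GFPlo libraries and Igll1 in 3 and 4. Vpreb2 thus entered the test only through the group where it is high, and its call adds no support to the count of 5. Nor does it add support to the count of 7 or to the median. Igll1, with 3 Hdc-GFPhi libraries over the level, also needed Hdc-GFPlo libraries to enter, so its call carries part of the same limit. In sorted bulk samples, fewer cells carrying a transcript and less of it per cell cannot be told apart. With both outlying libraries, Hdc-GFPhi replicate 4 and Hdc-GFPlo replicate 3, left out, 4 of the 8 were called. Blnk missed the threshold there (log2 fold change -2.41, edgeR adjusted p = 0.0611).

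**Figure D1:**
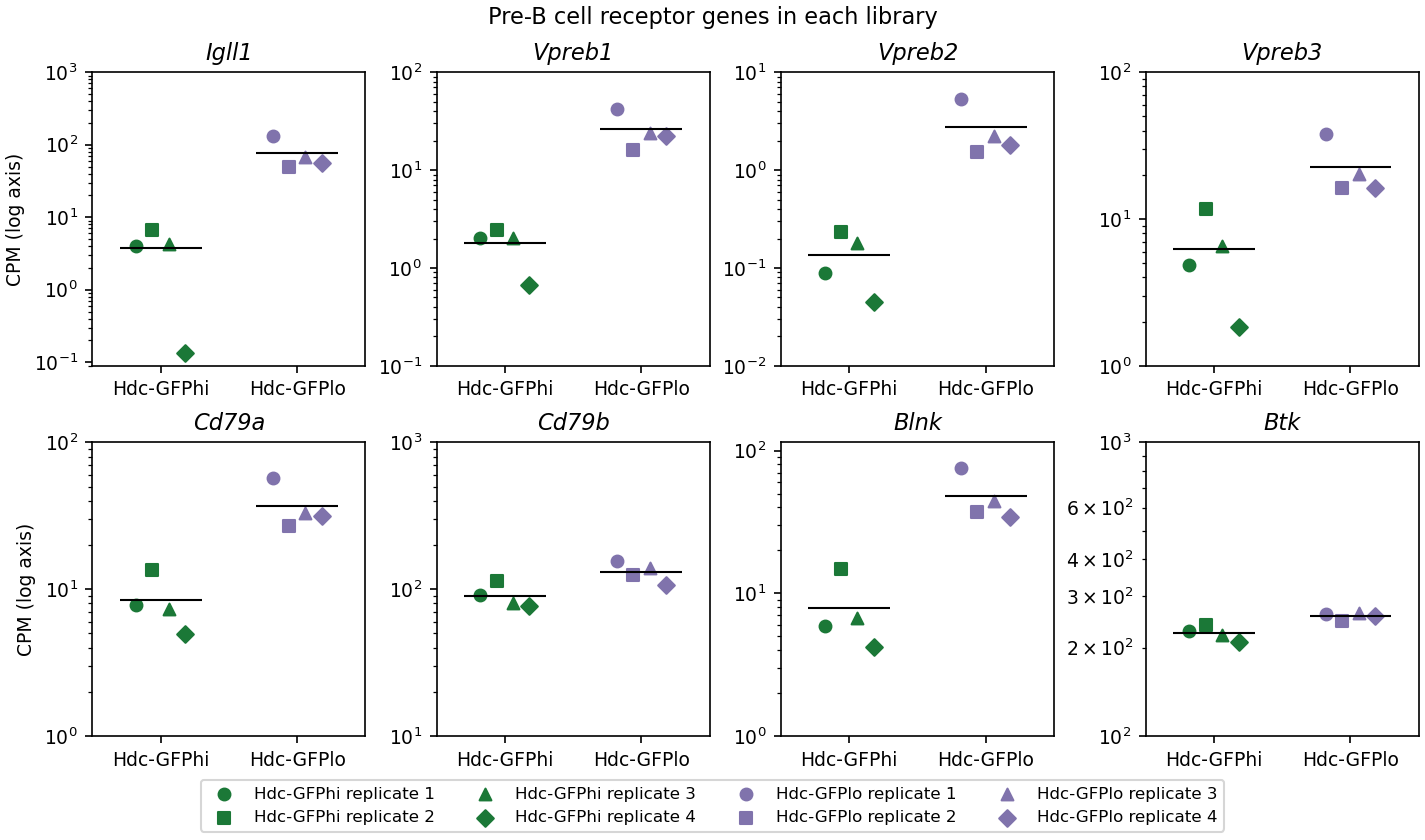
CPM on a log axis in each of the 4 Hdc-GFPhi (left) and 4 Hdc-GFPlo (right) libraries for the 8 genes, with the axis range set per gene. Marker shapes stand for replicates 1 to 4 and the horizontal line is the group mean. Only Cd79b overlaps between the groups, and Hdc-GFPhi replicate 4 is the lowest point in every panel.

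Igll1 encodes lambda5, the constant-like part of the surrogate light chain. It had 89, 144, 96 and 3 counts in Hdc-GFPhi replicates 1 to 4, against 2989, 830, 1239 and 1089 counts in Hdc-GFPlo replicates 1 to 4. Every Hdc-GFPlo library thus held several times the count of the highest Hdc-GFPhi library, and in Hdc-GFPhi replicate 4 the transcript was almost absent. Igll1 averaged 3.77 ± 2.72 CPM in Hdc-GFPhi, against 76.3 ± 38.1 CPM in Hdc-GFPlo (mean ± SD of 4 libraries a group), a log2 fold change of -4.34 with a 95% interval of -6.07 to -2.62. Its call in the edgeR fit was close to the threshold (adjusted p = 0.0483) and was lost when any library except Hdc-GFPhi replicate 4 was left out (adjusted p up to 0.151), while without Hdc-GFPhi replicate 4 the adjusted p was 0.000475 and the log2 fold change -3.93. Over all alternatives its adjusted p ranged from 0.000229 to 0.151 and its log2 fold change from -4.81 to -3.93.

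Vpreb1 encodes VpreB, the variable-like part that sits on lambda5. It had 45, 52, 46 and 15 counts in Hdc-GFPhi replicates 1 to 4, against 954, 268, 436 and 443 counts in Hdc-GFPlo replicates 1 to 4. The same library as for Igll1, Hdc-GFPhi replicate 4, was lowest, and Hdc-GFPlo replicate 1 was highest. Vpreb1 averaged 1.79 ± 0.77 CPM in Hdc-GFPhi, against 26.2 ± 11.3 CPM in Hdc-GFPlo (mean ± SD of 4 libraries a group), which is 14.6-fold lower in Hdc-GFPhi (edgeR adjusted p = 0.000373). It was the 7th smallest p of all tested genes, and it was called in all 8 fits that leave out 1 library (adjusted p up to 0.00455) and with both outlying libraries left out (0.00227).

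Vpreb2 is a second gene for VpreB. It had 2, 5, 4 and 1 counts in Hdc-GFPhi replicates 1 to 4, 12 in all, against 121, 26, 40 and 36 counts in Hdc-GFPlo replicates 1 to 4, 223 in all. At this depth the size of the fall is loosely set. The depth-adjusted ratio of the sums, Hdc-GFPhi over Hdc-GFPlo, was 0.0468 with an exact 95% interval of 0.0238 to 0.0834 that covers counting error only (edgeR adjusted p = 0.00507). Vpreb1 and Vpreb2 differ at 9 of 429 coding bases (97.9% identity, GENCODE M21), and 162 of the 380 stretches of 50 coding bases (42.6%) are the same in both, so reads may have been split or lost between them in a way that the sources used here do not give. The copies are shown over coding bases 268 to 387, where 6 of the differences lie, with the differing bases in capitals.
Vpreb1 (chromosome 16, minus strand): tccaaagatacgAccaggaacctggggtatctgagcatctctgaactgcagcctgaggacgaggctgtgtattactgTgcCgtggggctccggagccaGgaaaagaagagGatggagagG
Vpreb2 (chromosome 16, plus strand): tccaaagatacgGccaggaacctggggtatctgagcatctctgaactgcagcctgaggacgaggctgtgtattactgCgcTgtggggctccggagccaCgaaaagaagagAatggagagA
Vpreb2 made up 4.26%, 8.77%, 8.0% and 6.25% of the counts of both genes in Hdc-GFPhi replicates 1 to 4, against 11.3%, 8.84%, 8.40% and 7.52% in Hdc-GFPlo replicates 1 to 4. The exact binomial intervals of the Hdc-GFPhi shares are wide, from 0.520% to 14.5% in replicate 1 to 0.158% to 30.2% in replicate 4. Whether the split differed between the groups was not tested. With the counts of both summed into 1 gene, the sum was also called lower.

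The balance of Igll1 to Vpreb1 was alike in most libraries. Igll1 had 1.98, 2.77, 2.09 and 0.2 counts for each Vpreb1 count in Hdc-GFPhi replicates 1 to 4, against 3.13, 3.10, 2.84 and 2.46 in Hdc-GFPlo replicates 1 to 4. Hdc-GFPhi replicate 4 stands out: Igll1 made up 16.7% of the counts of the pair there (3 Igll1 and 15 Vpreb1 counts, exact 95% interval 3.58% to 41.4%, counting error only), while it made up 66.4% to 73.5% in the other Hdc-GFPhi libraries and 71.1% to 75.8% in the Hdc-GFPlo libraries. Igll1 and Vpreb1 are direct neighbours on chromosome 16 with no annotated gene between them in RefSeq.

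Vpreb3 encodes a VpreB-like protein of the endoplasmic reticulum that binds newly made heavy chains and is not part of the surface receptor. It had 109, 250, 147 and 41 counts in Hdc-GFPhi replicates 1 to 4, against 858, 275, 364 and 323 counts in Hdc-GFPlo replicates 1 to 4. The groups did not overlap, but Hdc-GFPhi replicate 2 came close to the lowest Hdc-GFPlo libraries. Vpreb3 averaged 6.22 ± 4.12 CPM in Hdc-GFPhi, against 22.7 ± 10.3 CPM in Hdc-GFPlo (mean ± SD of 4 libraries a group), a log2 fold change of -1.87 (95% interval -2.83 to -0.91) that edgeR did not call (adjusted p = 0.0748). Leaving out Hdc-GFPhi replicate 2 brought a call (log2 fold change -2.37, adjusted p = 0.0212), and over all alternatives its adjusted p ranged from 0.0212 to 0.274.

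The signalling chains of the receptor differed from each other. Cd79a, which encodes the Ig-alpha chain, was at 7.80, 13.5, 7.30 and 4.95 CPM in Hdc-GFPhi replicates 1 to 4, against 57.2, 27.1, 33.1 and 31.3 CPM in Hdc-GFPlo replicates 1 to 4. The groups were well apart, with Hdc-GFPhi replicate 2 the nearest to the Hdc-GFPlo libraries. The log2 fold change of Cd79a was -2.15 (95% interval -2.81 to -1.49, edgeR adjusted p = 0.00507), with a call in all 8 fits that leave out 1 library (adjusted p up to 0.0319). Cd79b, which encodes its partner Ig-beta, was at 90.7, 114, 80.1 and 77.1 CPM in Hdc-GFPhi replicates 1 to 4, against 156, 124, 139 and 107 CPM in Hdc-GFPlo replicates 1 to 4. Hdc-GFPhi replicate 2 lay above Hdc-GFPlo replicate 4, so the groups overlapped. The log2 fold change of Cd79b was -0.54 (95% interval -0.86 to -0.22), which edgeR did not call (adjusted p = 0.136) and the DESeq2 Wald test did (adjusted p = 0.0375, in a range of 0.0375 to 0.419 over all alternatives). The intervals of Cd79a and Cd79b do not meet, though the difference between the genes' fold changes was not itself tested.

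Of the cytoplasmic members, the adaptor fell and the kinase did not pass the test. Blnk, the B cell linker that docks BTK and phospholipase C to the receptor, was at 5.89, 14.8, 6.68 and 4.23 CPM in Hdc-GFPhi replicates 1 to 4, against 76.0, 36.9, 44.6 and 34.0 CPM in Hdc-GFPlo replicates 1 to 4. Hdc-GFPhi replicate 2 again came nearest to Hdc-GFPlo, and no library crossed over. The log2 fold change of Blnk was -2.60 (95% interval -3.39 to -1.81, edgeR adjusted p = 0.00507), with a call in all 8 fits that leave out 1 library. Btk, the kinase whose loss stops early B cell development in humans, was at 227, 238, 220.1 and 208 CPM in Hdc-GFPhi replicates 1 to 4, against 259.8, 247, 263 and 256 CPM in Hdc-GFPlo replicates 1 to 4. All Hdc-GFPhi libraries were below all Hdc-GFPlo libraries, by a small margin. The log2 fold change of Btk was -0.20 (95% interval -0.38 to -0.01), which was not called (edgeR adjusted p = 0.413, and 0.243 to 0.686 over all alternatives).

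**Figure D2:**
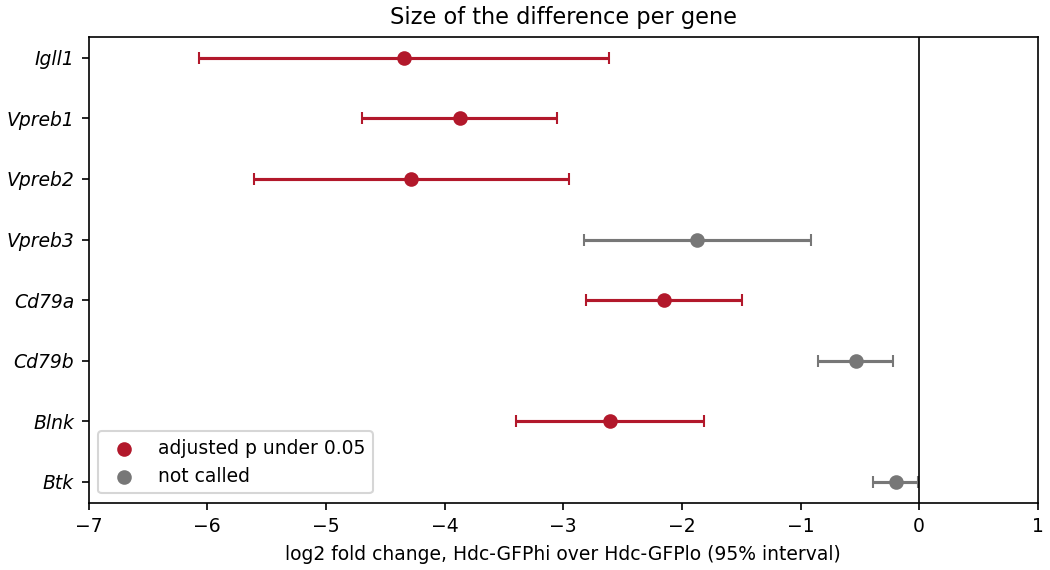
Log2 fold change of Hdc-GFPhi over Hdc-GFPlo for each gene, with its 95% interval from the edgeR fit (n = 4 libraries a group). Red genes had an adjusted p under 0.05. The genes run from -4.34 for Igll1 to -0.20 for Btk, with Cd79b at -0.54.

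The members also differed in level, compared as CPM per kilobase of the longest protein-coding transcript. In Hdc-GFPhi, Btk (88.0 ± 4.92) and Cd79b (63.2 ± 11.7) stood far above the rest, which ran from Vpreb3 (8.54 ± 5.65), Cd79a (5.76 ± 2.5), Igll1 (4.34 ± 3.13) and Blnk (3.77 ± 2.24) to Vpreb1 (2.33 ± 1.0) and Vpreb2 (0.18 ± 0.11). In Hdc-GFPlo, Btk (101 ± 2.7), Cd79b (91.7 ± 14.5) and Igll1 (87.8 ± 43.8) had overlapping library ranges, followed by Vpreb1 (34.2 ± 14.7), Vpreb3 (31.1 ± 14.2), Cd79a (25.5 ± 9.33) and Blnk (22.8 ± 9.2), which overlapped each other, and Vpreb2 (3.6 ± 2.33; all SD, n = 4). Btk and Cd79b, the members whose difference was smallest, were the most abundant in Hdc-GFPhi, while in Hdc-GFPlo their libraries were not separated from those of Igll1. Igll1 ranked 5 of 8 in Hdc-GFPhi and 3 of 8 in Hdc-GFPlo.

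Within each group the members followed much the same order of libraries. Hdc-GFPhi replicate 4 was the lowest and Hdc-GFPhi replicate 2 the highest library of its group for all 8 genes. This order was not particular to the members. Genes outside them had it too, such as Lyn (130 CPM in replicate 2 and 102 CPM in replicate 4), Ptpn6 (580 and 461 CPM) and Itgam (114 and 66.6 CPM). Others did not, such as Kit, which was highest in Hdc-GFPhi replicate 3 (1537 CPM). Hdc-GFPlo replicate 1 was the highest of its group for all but Btk, and Hdc-GFPlo replicate 2 was the lowest for all but Cd79b and Blnk, where replicate 4 was. The spread within Hdc-GFPhi, highest over lowest library in CPM, was 50.2-fold for Igll1, 6.38-fold for Vpreb3, 5.23-fold for Vpreb2, 3.63-fold for Vpreb1, 3.49-fold for Blnk and 2.73-fold for Cd79a, and 1.48-fold for Cd79b and 1.14-fold for Btk. Within Hdc-GFPlo it was 2.68-fold for Igll1, 3.47-fold for Vpreb2 and between 1.06-fold and 2.65-fold for the others. The part of the libraries' other differences in this order was not tested.

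The promoter windows of the members (RefSeq, build GRCm38.p6, 250 bases before to 50 after the annotated start) were searched for motifs bound by B lineage factors. A window was found for 7 of the 8 genes, all but Cd79b, and the motifs were chosen with the sequences in view. The E-box CAGGTG, a motif of E proteins such as E2A, searched on both strands, was present in 5 windows (Igll1, Vpreb1, Vpreb2, Cd79a and Blnk) and in 20.2% of all 32851 windows of this length. These are the 5 called genes, but the motifs were chosen with the sequences in view, so the match supports no link between motif and call. Vpreb1 and Vpreb2 are copies of each other and not independent, and the call of Igll1 was close to the threshold. The octamer ATTTGCAT, known from immunoglobulin promoters, was present in Vpreb3 and Blnk and in 1.74% of all windows. The EBF core CCCNNGGG was present in Igll1 and in 13.7% of all windows. The motifs did not overlap each other in these windows. The windows of the called genes are shown with the E-box and the octamer in capitals, read on the strand of the gene.
Igll1 (chr16:16863936-16864235, minus strand): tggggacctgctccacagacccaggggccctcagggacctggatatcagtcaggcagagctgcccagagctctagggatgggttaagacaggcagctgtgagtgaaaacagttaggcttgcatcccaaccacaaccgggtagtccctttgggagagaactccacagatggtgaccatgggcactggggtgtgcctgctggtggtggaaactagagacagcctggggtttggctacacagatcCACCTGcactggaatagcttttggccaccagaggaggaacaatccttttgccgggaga
Vpreb1 (chr16:16869206-16869505, minus strand): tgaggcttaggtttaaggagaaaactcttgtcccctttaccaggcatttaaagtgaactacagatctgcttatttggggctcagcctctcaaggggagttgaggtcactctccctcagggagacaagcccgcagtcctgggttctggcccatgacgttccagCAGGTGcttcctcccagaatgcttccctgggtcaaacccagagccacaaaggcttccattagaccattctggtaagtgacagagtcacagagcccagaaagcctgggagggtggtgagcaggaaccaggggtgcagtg
Vpreb2 (chr16:17980315-17980614, plus strand): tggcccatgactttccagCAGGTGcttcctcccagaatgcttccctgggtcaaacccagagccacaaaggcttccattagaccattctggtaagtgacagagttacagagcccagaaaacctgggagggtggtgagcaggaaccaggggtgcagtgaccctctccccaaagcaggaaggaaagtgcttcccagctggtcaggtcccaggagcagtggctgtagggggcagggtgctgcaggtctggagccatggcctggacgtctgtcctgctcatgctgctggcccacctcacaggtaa
Cd79a (chr7:24897247-24897546, plus strand): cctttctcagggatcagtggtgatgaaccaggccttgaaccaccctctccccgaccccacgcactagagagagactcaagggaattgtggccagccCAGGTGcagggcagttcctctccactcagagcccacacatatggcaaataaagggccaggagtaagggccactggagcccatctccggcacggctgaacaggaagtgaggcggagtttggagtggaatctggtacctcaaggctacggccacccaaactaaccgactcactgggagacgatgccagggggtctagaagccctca
Blnk (chr19:40994172-40994471, minus strand): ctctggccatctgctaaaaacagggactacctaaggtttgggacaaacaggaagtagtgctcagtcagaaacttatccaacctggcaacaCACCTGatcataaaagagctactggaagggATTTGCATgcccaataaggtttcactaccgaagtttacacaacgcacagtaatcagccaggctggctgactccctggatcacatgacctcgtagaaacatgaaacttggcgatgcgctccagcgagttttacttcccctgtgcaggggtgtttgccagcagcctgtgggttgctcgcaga
A match is a description of letters, not a binding site. The E-box begins 8 bases before the annotated start in Igll1, 88 in Vpreb1, 232 in Vpreb2, 154 in Cd79a and 160 in Blnk, and the octamer 130 bases before it in Blnk.

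The genes whose profile over the 8 libraries was most like that of each called member were sought among 11506 tested genes outside the 8 members with a mean count of at least 50. Likeness was the mean absolute difference between log2 CPM values, each gene centred on its own mean, and much of any likeness here is the shared difference between the groups. The profile of Cd79a was nearest to Pou2af1 (difference 0.17), which encodes the B cell coactivator OCA-B, and to Ebf1 (0.19), the factor that specifies the B lineage. Among these genes, that of Blnk was nearest to Id3 (0.23), an inhibitor of E proteins, Il7r (0.27), the receptor chain for interleukin 7, and Ebf1 (0.31), and Cd79a lay at 0.26 from Blnk. Vpreb1 was nearest to Colq (0.42), 2010001M09Rik (0.51), the older symbol of Mzb1, a chaperone of B cells, and Ccdc135 (0.55), and it was nearer to Vpreb2 (0.30) than to any of these. Vpreb2, likewise nearer to Vpreb1 (0.30) than to any gene outside the members, came next to 2010001M09Rik (0.39), Colq (0.46) and Il7r (0.47). Outside the members, Igll1 was nearest to the transcription factor gene Lef1 (0.47), Colq (0.67) and Gfra1 (0.73), with Vpreb1 at 0.68. Lef1, Colq and Gfra1 had 0 counts in Hdc-GFPhi replicate 4, where Igll1 had 3, so their log2 values there are set by the prior count and these likenesses rest in part on that library.

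**Figure D3:**
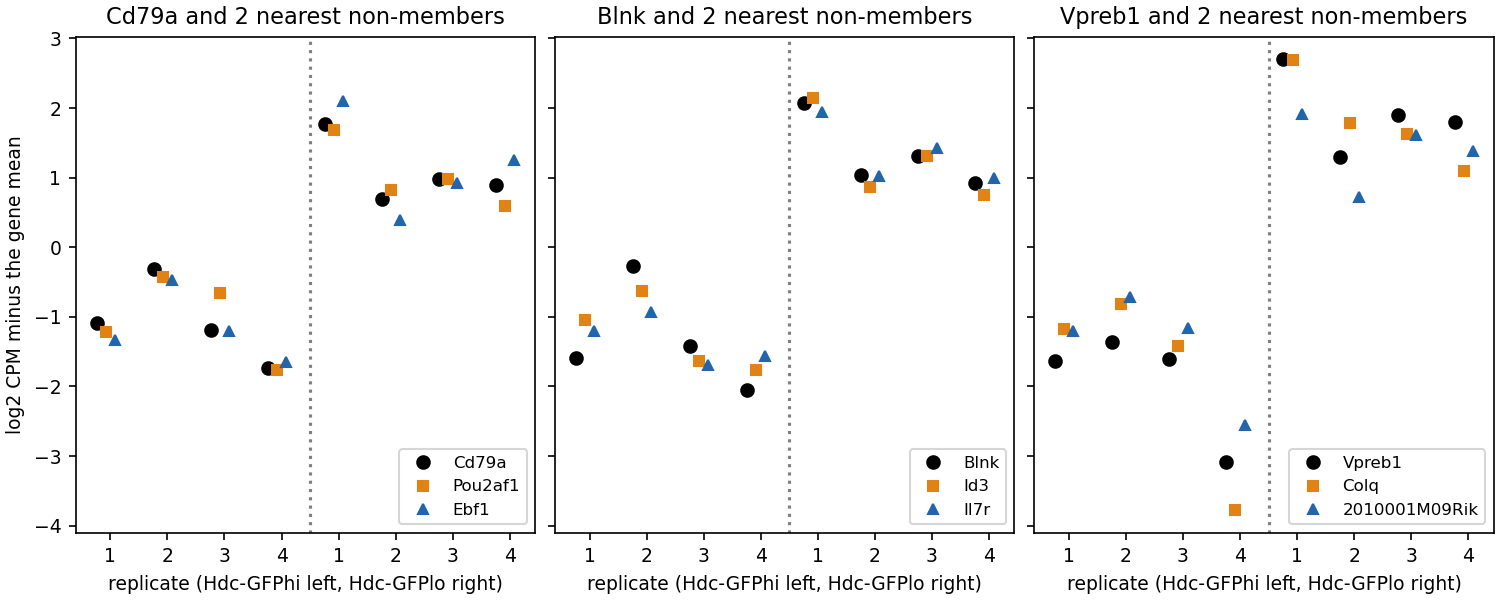
Log2 CPM minus each gene's mean over the 8 libraries for Cd79a, Blnk and Vpreb1 (black circles) and the 2 genes outside the 8 members nearest to each (coloured), by replicate number, with Hdc-GFPhi left and Hdc-GFPlo right of the dotted line. Pou2af1 and Ebf1 lie on average 0.17 and 0.19 from Cd79a, and Hdc-GFPhi replicate 4 is the lowest library for all 3 black profiles.

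Of these neighbours, Pou2af1 averaged 3.89 CPM in Hdc-GFPhi, against 15.9 CPM in Hdc-GFPlo, and its log2 fold change of -2.04 ± 0.32 (SE) was called (edgeR adjusted p = 0.00817). 2010001M09Rik (-2.78 ± 0.35, edgeR adjusted p = 0.00277), Ccdc135 (-2.55 ± 0.37, 0.00563) and Colq (-3.65 ± 0.64, 0.0169) were called too, though Colq missed the threshold (up to 0.0763) when either Hdc-GFPhi replicate 3 or Hdc-GFPlo replicate 1 was dropped. Gfra1 (log2 fold change -2.95, edgeR adjusted p = 0.061) was not called. Dropping Hdc-GFPhi replicate 4 brought Gfra1 to a call (adjusted p = 0.0164, range over all alternatives 0.0164 to 0.241).

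Most genes that carry the signal onward from the receptor were well expressed and were not called. Of 30 listed signalling genes, all tested, none was called in edgeR, and 22 were below 0, with a median log2 fold change of -0.11. Groups did not overlap for 4 of the 30, against 6.92% of all tested genes. Syk, the kinase that binds the phosphorylated CD79 chains, averaged 310 CPM in Hdc-GFPhi, against 312 CPM in Hdc-GFPlo (log2 fold change -0.01), and Plcg2, the phospholipase that BLNK and BTK activate, averaged 424 and 396 CPM in the same order (0.10). The nearest to the threshold was Rasgrp3, an exchange factor for Ras (log2 fold change -0.99, adjusted p = 0.0567). Of 15 inhibitors of the pathway none was called (median -0.11), with Pag1, a membrane adaptor, at -0.31 (adjusted p = 0.341) and Siglecg, an inhibitory lectin, at -0.37 (0.362). At an unadjusted p under 0.05, 7 of the 30 signalling genes and 3 of the 15 inhibitors passed, against 10.9% of all tested genes. The DESeq2 Wald test called 3 signalling genes and no inhibitor, and limma voom 2 and none. Of the relatives of Btk and Blnk, 5 of 6 were tested and none called by edgeR, DESeq2 or voom (2 at an unadjusted p under 0.05). Tec, a kinase related to Btk, was at -0.34 on the log2 scale (adjusted p = 0.269), and Lcp2, the SLP-76 adaptor related to Blnk, averaged 152 CPM in Hdc-GFPhi, against 139 CPM in Hdc-GFPlo (0.13, adjusted p = 0.741). Blnk, at -2.60, was outside the range of its listed relatives, whose difference from it was not tested.

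**Figure D4:**
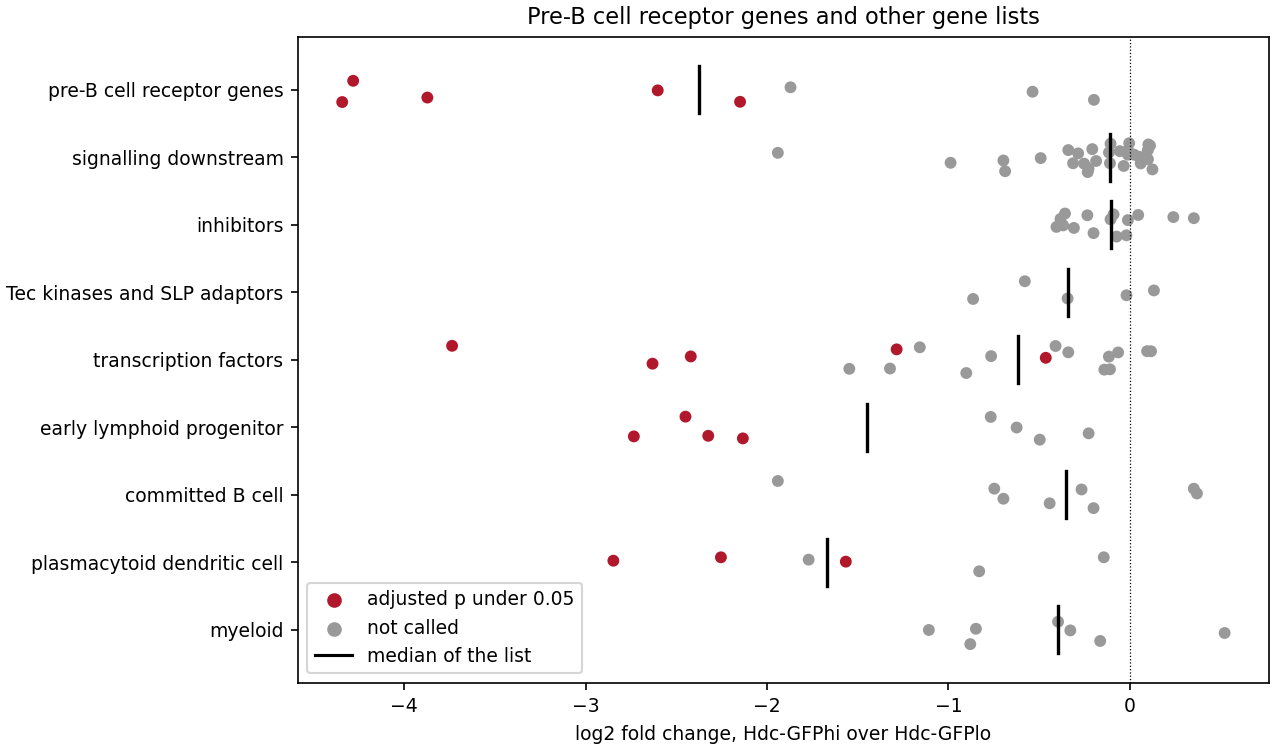
Log2 fold change of Hdc-GFPhi over Hdc-GFPlo for every tested gene of the 8 pre-B cell receptor genes and of 8 other lists, with the list median as a black bar and called genes in red. Vertical scatter only separates points. The receptor genes have a median of -2.38, against -0.11 for the signalling genes and for the inhibitors and -1.45 for the early lymphoid genes.

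Transcription factors that act on these genes were uneven. Of 18 listed factors, 5 were called lower and none higher (median -0.61), against the 0.707% and 0.241% of all tested genes. Ebf1 (log2 fold change -2.42 ± 0.35 SE, edgeR adjusted p = 0.00533), Id3 (-2.63 ± 0.37, 0.00507) and Irf8 (-1.29 ± 0.18, 0.00507), a factor of B cells and monocytes, were called in all 8 fits that leave out 1 library. Lef1 (-3.74 ± 0.67, edgeR adjusted p = 0.0203) missed the threshold (up to 0.0851) when a single library was dropped, for Hdc-GFPhi 2 and 3 and for Hdc-GFPlo 1, 3 and 4, and Ikzf1, which encodes Ikaros (-0.46 ± 0.09, 0.0311), without any library except Hdc-GFPlo replicate 3 (up to 0.149). Tcf3, which encodes E2A, averaged 172 CPM in Hdc-GFPhi, against 186 CPM in Hdc-GFPlo and was not called (log2 fold change -0.11, adjusted p = 0.795). Pax5, the factor of B cell commitment, had 0 to 12 counts in Hdc-GFPhi libraries and 13 to 31 in Hdc-GFPlo libraries (log2 fold change -1.55, adjusted p = 0.409). Syk, Plcg2, Lcp2, Tcf3 and Pax5 were singled out after their values were seen.

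Markers of other cell types that carry these transcripts moved in part with the members, and their part in the result was not tested. Of 8 committed B cell genes none was called in edgeR, and DESeq2 and voom each called 1 (6 below 0, median -0.35). At an unadjusted p under 0.05, 3 of the 8 passed, against 10.9% of all tested genes. Groups did not overlap for 2 of the 8, against 6.92% of all tested genes. The summed level of the list was 207 to 270 CPM in Hdc-GFPhi libraries and 282 to 375 CPM in Hdc-GFPlo libraries. Most of it was Cd37, which averaged 151 and 181 CPM in the same order. In that list Ms4a1 (log2 fold change -0.75, edgeR adjusted p = 0.42), Blk (-0.70, 0.692) and Cd37, a tetraspanin (-0.27, 0.268), were below 0. Cd22 (0.35) and Fcer2a (0.37), markers of later B cells, had log2 fold changes above 0 and were not called. Not every gene of the list that was below 0 is named here. The heavy and light chain constant genes were looked for by symbol and are not analysed here. Igj, the joining chain of secreted antibody, had 9, 13, 9 and 12 counts in Hdc-GFPhi replicates 1 to 4, against 18, 1604, 3313 and 3036 counts in Hdc-GFPlo replicates 1 to 4. Hdc-GFPlo replicate 1 thus lay near the Hdc-GFPhi libraries and the other 3 far above them. The log2 fold change of Igj was -7.79 (edgeR adjusted p = 0.119), and it was called by DESeq2, when Hdc-GFPlo replicate 1 was dropped and when the robust option was turned off. Of 5 tested plasma cell genes, Igj among them, none was called in edgeR, DESeq2 called 1 and voom none. At an unadjusted p under 0.05, 3 of the 5 passed, against 10.9% of all tested genes. Sdc1 was at -0.58 (edgeR adjusted p = 0.172). The summed level of the plasma cell list was 242 to 297 CPM in Hdc-GFPhi and 269 to 483 CPM in Hdc-GFPlo. Most of it was Xbp1, which averaged 245 and 251 CPM in the same order, while Igj averaged 0.49 and 108 CPM. Of 6 tested plasmacytoid dendritic cell genes, Ccr9 (-2.25), Ly6d (-1.57) and Cox6a2 (-2.85) were called lower, against 0.707% of all tested genes. The summed level was 73.1 to 97.0 CPM in Hdc-GFPhi and 94.1 to 163 CPM in Hdc-GFPlo. Most of that sum was Bst2, which averaged 67.3 and 74.3 CPM in the same order (log2 fold change -0.14) and was not called. Siglech, the defining marker of these dendritic cells, had 0 to 42 counts in Hdc-GFPhi and 10 to 60 in Hdc-GFPlo libraries (adjusted p = 0.601). With both outlying libraries left out, Ccr9 (adjusted p = 0.0817) and Ly6d (0.056) missed the threshold. Of 8 early lymphoid genes, Il7r (-2.73), Dntt (-2.32), Rag1 (-2.45) and Rag2 (-2.13) were called lower and none higher in edgeR (median -1.45). Over all tested genes, edgeR called 0.707% lower and 0.241% higher. DESeq2 and voom each called 7 of the 8, where they called 410 and 278 genes over all genes. The summed level was 1429 to 1834 CPM in Hdc-GFPhi and 2708 to 3535 CPM in Hdc-GFPlo. Rag1 lost its call without any library except Hdc-GFPhi replicate 4 (adjusted p up to 0.172).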

How the data were processed

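RNA from sorted Hdc-GFPhi and Hdc-GFPlo LSK cells (4 libraries each, 2000 cells a library) was isolated (PicoPure), amplified as cDNA (SMARTer) and made into libraries (Nextera XT), per the labels' protocols. The submitters' processing notes name build mm9, HTSeq 0.6.1, TopHat2 2.04, Bowtie2 and bcl2fastq 1.8.4. The sources used here do not give the annotation, the strand setting or how reads with several matches were counted. The counts were deposited by the authors as whole numbers per gene symbol, not normalized, with 16726179 to 23051277 per library. Without molecular identifiers, copies of 1 molecule count separately, so intervals on counts cover counting error only.

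Groups and replicate numbers came from the titles. The 8 genes and the other lists were chosen with earlier results of these data known. Genes were kept by edgeR's filterByExpr (13300 of 23284), scaled by TMM and tested with edgeR 4.0.16 (glmQLFit with robust estimation, glmQLFTest, without covariates, R 4.3.3), and p-values were adjusted by Benjamini-Hochberg over all tested genes, with a threshold of 0.05. CPM is TMM-scaled, and its log2 was taken with prior count 2. The steps were tested on simulated counts. Alternatives were other scalings and filters, DESeq2 1.42.0, limma 3.58.1 voom, a block on replicate number and estimation without the robust option. Vpreb1 and Vpreb2 were also summed, and each library was left out in turn. A further fit, chosen after seeing the data, left out Hdc-GFPhi 4 and Hdc-GFPlo 3 together. These lay farthest from 0 on the first and the second principal component. Hdc-GFPhi 2 lay almost as far out on the second and was kept. Libraries of a group differed beyond sampling noise (chi-square per degree of freedom at least 13.8).

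Named genes were the 8 members, the 3 genes nearest to each called member, every called gene of the lists and, where a list had none, the 2 with the smallest p, except that some genes this rule names are not reported here. Older symbols in the table (Sfpi1 for Spi1, Lilrb3 for Pirb) were matched through RefSeq synonyms. Transcript lengths and coding bases came from GENCODE M21 and promoter windows from RefSeq, both on GRCm38, while the counts were made on mm9.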

Additional observations from a re-analysis of the deposited data

Results flagged for a closer look

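Hdc-GFPhi replicate 4 was far from the other libraries of its group for Igll1 and for Vpreb1. Its gap to the nearest library took up 0.847 of the whole range of log2 CPM in the group for Igll1 and 0.847 for Vpreb1, above Dixon's critical value for 4 values. It had 3 Igll1 and 15 Vpreb1 counts, against 89 to 144 and 45 to 52 in the other Hdc-GFPhi libraries. Of 16 combinations of gene and group, these 2 passed the limit, and chance alone passes about 1 in 20. The genes are neighbours and were measured in the same library, so the findings are not independent.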

How the results depend on the processing

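All 8 members kept a log2 fold change below 0 under every alternative that could be run. Vpreb1 and Cd79a stayed called in all of them, Vpreb2 in all that tested it (it is not tested under the filter of 50 counts in 4 libraries or when summed with Vpreb1), and Blnk in all but the fit that drops Hdc-GFPhi 4 and Hdc-GFPlo 3 (log2 fold change -2.41, adjusted p = 0.0611). Igll1 missed the threshold with DESeq2 size factors (log2 fold change -4.34, adjusted p = 0.0512), upper-quartile factors (-4.33, 0.055), no composition factor (-4.31, 0.0512) and no filter (-4.34, 0.0978). With 1 library left out it ranged from -4.77 to -3.93 and Vpreb3 from -2.37 to -1.503. Vpreb3 passed with the DESeq2 Wald test (-1.86, 0.0491), voom (-2.02, 0.0389) and the replicate block (-2.01, 0.0279), and Cd79b with the DESeq2 Wald test (-0.54, 0.0375). The cause of these changes was not tested. The number of called members ranged from 4 to 7, with 4 to 5 when 1 library was left out. Over all genes, 126 were called in edgeR, 410 with DESeq2, 278 with voom and 224 with the replicate block, and 52 (without Hdc-GFPlo replicate 1) to 146 with 1 library left out (68 without Hdc-GFPhi replicate 3). Over the other lists, 13 genes were called in edgeR, 24 with DESeq2, 20 with voom and 20 with the replicate block. The main fit did not pair libraries by replicate number. Deviations from the group means correlated at 0.257, 0.347, 0.0755 and 0.100 between libraries of the same number. Libraries of different numbers were not compared, so these values do not settle whether the numbers mark pairs. With the replicate number as a block, 6 members, 7 of 8 early lymphoid genes and Igj were called. Vpreb2 rests on 12 counts in Hdc-GFPhi, so depth limits the size of its fall. Igll1 has 332 counts there, and its spread lies between libraries (3 counts in Hdc-GFPhi replicate 4, 89 to 144 in the others).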

Other observations

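Lists outside the B lineage give further values. Of 7 tested myeloid genes none was called in edgeR (2 with DESeq2 and 1 with voom), with a median log2 fold change of -0.40. At an unadjusted p under 0.05, 2 of the 7 passed, against 10.9% of all tested genes. The smallest p were those of Ctsg, the granule protease cathepsin G (-0.88, edgeR adjusted p = 0.0596), and Csf1r, the receptor of macrophage growth factor (-1.11, 0.146). Their summed level was 942 to 1285 CPM in Hdc-GFPhi and 1217 to 1431 CPM in Hdc-GFPlo. Of 3 tested T cell genes, the kinase Lck fell by 0.59 on the log2 scale (edgeR adjusted p = 0.018), where 0.707% of all tested genes were called lower. Its call was missed (up to 0.0867) when a single library was dropped, for Hdc-GFPhi 1, 3 and 4 and for Hdc-GFPlo 1. The list median was -0.06. Ptcra, the pre-T cell receptor alpha chain that is the counterpart of the surrogate light chain in T cells, had 3 counts over all Hdc-GFPhi libraries and 3 over all Hdc-GFPlo libraries. Of 3 tested erythroid genes none was called in edgeR, DESeq2 or voom (1 at an unadjusted p under 0.05), with Epor, the erythropoietin receptor, at 0.59 (edgeR adjusted p = 0.416).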
